A study of Mus musculus with 12 samples.

Results

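Endothelin-1 (Edn1), its receptors (Ednra, Ednrb), the type 1a angiotensin receptor (Agtr1a), angiotensin-converting enzyme (Ace), the serotonin receptors Htr1b, Htr2a and Htr2b, and the kinin receptors Bdkrb1 and Bdkrb2 are 10 genes of the vasoactive peptide and amine systems. They were chosen by name, with earlier results of the same libraries in view, out of the 21556 genes counted in primary mouse skin fibroblasts. The TGF-β2 differences below are therefore descriptions that carry no test of the set. RNA was sequenced from 12 cultures of fibroblasts grown from abdominal skin, in 4 groups of 3. They were wild type (WT) C57BL/6 cells without TGF-β2, WT cells given TGF-β2 at 10 ng/ml for 24 h, and B6.129-Nox4tm1Kkr/J knockout (Nox4 KO) cells in the same 2 states. All cells grew in DMEM with 10% serum and were starved for 24 h first. The knockout allele of Nox4, the gene of NADPH oxidase 4, is carried by the whole animal, not by fibroblasts alone, and WT and KO animals were bred as separate litters.

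These systems act at short range on vessels, nerves and connective tissue. Endothelin-1 is cut from a precursor by Ece1 and acts on the ETA receptor (Ednra) and the ETB receptor (Ednrb), while Ace makes angiotensin II, the ligand of the receptor encoded by Agtr1a, and also breaks down bradykinin. Serotonin acts on many receptors, of which 5-HT1B (Htr1b) lowers cyclic AMP through Gi and 5-HT2A and 5-HT2B (Htr2a, Htr2b) raise calcium through Gq. Bradykinin acts on B2 (Bdkrb2), and the kinins that have lost their last arginine act on B1 (Bdkrb1). In connective tissue these receptors are known for their part in contraction and scarring.

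Each library held 35118344 to 43796260 counted reads. Levels are given in RPKM (reads scaled to the length of the exons and to the total count of the library), so that genes can be compared per length. Fold changes and their standard errors (SE) came from edgeR's quasi-likelihood fit with Benjamini-Hochberg adjustment over all genes tested, those with a mean of at least 1 RPKM in a compared group. A gene was called when its adjusted p was under 0.05 and it differed at least 2-fold. Nox4 itself was at 1.74 ± 0.602 RPKM (SD, n = 3) in WT control and 0.896 ± 0.435 in KO control, and at 11.9 ± 3.97 and 5.26 ± 1.38 after TGF-β2. It was lower in the libraries labelled KO, 0.50-fold and 0.445-fold, but was not called, and whole-gene counts do not separate the deleted exons from the rest. Collagens and other fibroblast markers (6 of 6 genes) summed to 3542 to 6208 RPKM in every library.

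The promoters of the genes that were higher after TGF-β2, Edn1, Htr1b and Htr2b, are shown first so that their sequences can be read beside the values. Each line is the 250 bases before the RefSeq start on GRCm38.p6, 5′ to 3′ on the gene's strand, and capitals mark a match to a searched motif. Edn1 lies at chr13:42301226-42301475 (plus strand), Htr1b at chr9:81633833-81634082 (minus strand) and Htr2b at chr1:86111981-86112230 (minus strand), and none of these stretches held an annotated exon.
Edn1: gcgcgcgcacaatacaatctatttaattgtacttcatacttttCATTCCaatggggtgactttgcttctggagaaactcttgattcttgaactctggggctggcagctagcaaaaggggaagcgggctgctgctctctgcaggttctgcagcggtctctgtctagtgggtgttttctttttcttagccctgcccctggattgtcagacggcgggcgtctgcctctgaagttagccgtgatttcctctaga
Htr1b: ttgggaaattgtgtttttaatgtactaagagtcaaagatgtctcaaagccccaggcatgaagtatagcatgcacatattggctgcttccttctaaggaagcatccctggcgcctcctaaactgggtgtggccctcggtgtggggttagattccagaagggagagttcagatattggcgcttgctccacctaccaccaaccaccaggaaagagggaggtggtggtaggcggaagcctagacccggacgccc
Htr2b: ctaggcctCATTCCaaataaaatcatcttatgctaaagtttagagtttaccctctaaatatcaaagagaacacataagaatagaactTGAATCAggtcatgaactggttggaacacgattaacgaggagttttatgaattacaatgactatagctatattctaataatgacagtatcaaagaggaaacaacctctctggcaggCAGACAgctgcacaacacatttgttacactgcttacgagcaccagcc
Both strands of 300 bases, these 250 and the 50 that follow, were searched in the 8 members with a promoter in the table. The motifs were the SMAD element CAGACA, the palindromic SMAD element GTCTAGAC, the AP-1 element TGANTCA, the TEAD element GGAATG and the SRF CArG box. Htr2b held SMAD at positions -47 to -42 counted from the start, AP-1 at -163 to -157 (read on both strands) and TEAD, reversed, at -242 to -237, with no overlap between them. Edn1 held TEAD alone, reversed, at -207 to -202, and Htr1b held none of the 5. Htr2a had 1 SMAD match, and Ednra, Ednrb, Ace and Bdkrb2 had none. Of all 32851 promoters in the table, 21% held the SMAD element, 0.213% its palindrome, 7.81% AP-1, 14.7% TEAD and 1.63% the CArG box. These matches describe the letters and nothing about binding.

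The serotonin receptors showed the widest range. In control cultures Htr2a and Htr1b were the most abundant of the 10 genes. Htr2b had the lowest mean in both genotypes, with libraries that overlapped those of Ednrb. After TGF-β2, Htr1b stood above all of the others in WT and in KO. By its mean Htr2b moved from the last place to the seventh in WT and the sixth in KO, where it overlapped the neighbouring genes. Htr2a was not called in either genotype.

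Htr1b (ENSMUSG00000049511, chr9:81628291-81633828, GRCm38) was at 8.32, 9.61 and 3.93 RPKM in the WT control libraries and at 38.2, 23.9 and 31.2 after TGF-β2. The KO libraries were at 8.13, 8.71 and 11.1 in control and at 38.0, 36.6 and 41.3 after TGF-β2. No stimulated library was as low as the highest control in either genotype, and the low WT control value was that of replicate 3. Htr1b rose by 2.13 ± 0.36 on the log2 scale in WT (4.38-fold, 95% CI 2.4 to 7.99) and by 2.14 ± 0.12 in KO (4.41-fold, CI 3.61 to 5.38). An antisense gene, D430036J16Rik, shares 852 bases with its exons, and whether strand was used in counting is not given in the sources used here.

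Htr2b (ENSMUSG00000026228, chr1:86099026-86111970) was counted at 3, 3 and 7 reads in WT control and at 66, 66 and 68 after TGF-β2. In KO it had 11, 8 and 24 reads in control and 160, 109 and 109 after TGF-β2. These reads correspond to means of 0.0528 ± 0.0249 and 0.813 ± 0.0492 RPKM in WT, and of 0.178 ± 0.116 and 1.38 ± 0.324 in KO. The groups did not overlap, and the read numbers were few on both sides. Summed over 3 libraries and scaled to the totals, the WT ratio was 15.1 (exact 95% interval 8.63 to 28.9, counting error only) and the KO ratio 7.94 (5.78 to 11.2).

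In the fits, Htr2b rose by 3.06 ± 0.41 (log2, SE) in KO, where it was tested through the stimulated group, in which it is high. In WT it was under 1 RPKM in both groups, and in a fit filtered by edgeR's filterByExpr it rose by 3.95 ± 0.31. Htr2b sits inside Psmd1, a proteasome subunit gene on the other strand, and shares 252 of 2131 exon bases with it. Psmd1 had 6864 to 9175 reads in every library, so the few reads of Htr2b could not be told apart from Psmd1 reads over the shared bases.

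Htr2a (ENSMUSG00000034997, chr14:74640840-74709494) was at 10.6, 12.1 and 15 RPKM in WT control and at 9.77, 5.97 and 11.9 after TGF-β2. In KO it was at 12.7, 12.0 and 16.2 in control and at 11.1, 11.9 and 8.94 after TGF-β2. The WT groups overlapped, and the KO groups did not, by a narrow margin. The log2 difference was -0.40 ± 0.26 in WT and -0.27 ± 0.15 in KO, and neither was called.

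**Figure D1:**
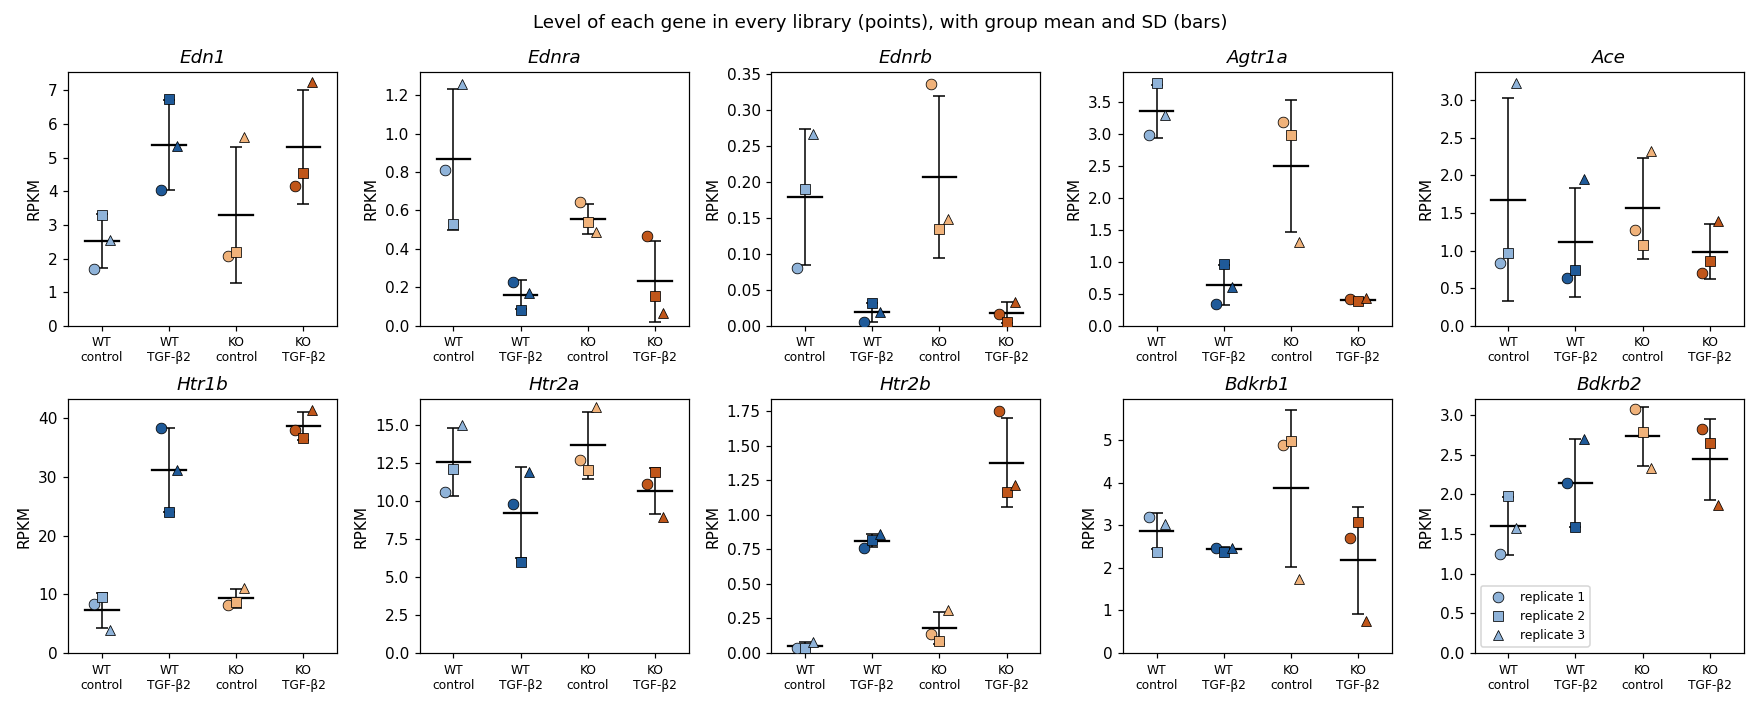
RPKM (y axis, linear, from 0, a scale of its own in each panel) of the 10 genes in the 12 libraries. Symbols mark the replicate number, horizontal bars the mean of 3 libraries and vertical bars the SD. Htr1b, Htr2b, Agtr1a, Ednra and Ednrb separate the stimulated from the control libraries in both genotypes, and Ace, Bdkrb1 and Bdkrb2 do not.

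In WT the ligand of the endothelin system rose after TGF-β2 and both of its receptors fell, while in KO Ednrb alone of these 3 genes was called. Edn1 (ENSMUSG00000021367, chr13:42301476-42307990) was at 1.69, 3.29 and 2.56 RPKM in WT control and at 4.05, 6.73 and 5.34 after TGF-β2. The KO libraries were at 2.08, 2.20 and 5.62 in control and at 4.16, 4.54 and 7.25 after TGF-β2. The WT groups did not overlap. In KO they did, because control replicate 3 was above 2 of the stimulated libraries, and replicate 3 was the highest KO library in both states.

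Edn1 rose by 1.13 ± 0.27 (log2, SE) in WT, or 2.19-fold (CI 1.39 to 3.44), and differed by 0.79 ± 0.43 in KO, which was not called. The WT call was lost without control replicate 1 (0.91) or 3 (1.14), or without stimulated replicate 2 (0.95) or 3 (1.13). Without KO control replicate 3, the KO difference was 1.38 and was called. With the KO cultures paired by number (replicate block), it was 0.86, still under 2-fold and not called, with an adjusted p of 0.0068 by edgeR's quasi-likelihood test against 0.2074 without the block. The log2 ratio of stimulated to control RPKM between libraries of the same number was 1.00, 1.04 and 0.37 in KO, and the test of the difference between genotypes is given below.

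Ednra (ENSMUSG00000031616, chr8:77663031-77724464) was at 0.809, 0.528 and 1.26 RPKM in WT control and at 0.230, 0.0804 and 0.171 after TGF-β2. Its KO values were 0.642, 0.542 and 0.486 in control and 0.469, 0.158 and 0.0654 after TGF-β2. No stimulated library reached a control library of its genotype, although stimulated KO replicate 1 came close. Its mean was under 1 RPKM in every group, so it was read from the fit filtered by filterByExpr. There it fell by 2.34 ± 0.44 on the log2 scale in WT. In KO the difference was -1.15 ± 0.57 and was not called, whereas it was -1.23 and called with the replicate block, and -2.19 and called without stimulated replicate 1.

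Ednrb (ENSMUSG00000022122, chr14:103814625-103844402) had 12, 31 and 46 reads in WT control and 1, 5 and 3 after TGF-β2. In KO it had 55, 24 and 23 reads in control and 3, 1 and 6 after TGF-β2. Control means were 0.179 ± 0.0942 RPKM in WT and 0.207 ± 0.113 in KO, the levels of a gene with few transcripts in these cultures. Scaled to the totals, reads were 10.1-fold lower in WT (exact 95% interval 5.08 to 22.8) and 11.3-fold lower in KO (5.90 to 24.3). It fell by 3.19 ± 0.65 (log2, SE) in WT in the fit filtered by filterByExpr, and in KO it fell by 3.34 ± 0.68. The WT call was lost without stimulated replicate 1 (-2.78), and the KO call without stimulated replicate 1 (-3.27) or 2 (-2.92).

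Ednrb is also known from melanocytes, and Edn1 from endothelium, so marker lists of both were read beside them. The 7 melanocyte and Schwann cell markers summed to 0.654 to 1.29 RPKM, with none above 1 RPKM and Tyr at 0 reads in every library. Their sums overlapped between WT control (0.827 to 0.965) and stimulated WT (0.725 to 1.16), and did not in KO, at 0.886 to 1.29 and 0.654 to 0.710. The 6 endothelial markers summed to 2.54 to 4.12 in WT control and 1.67 to 2.35 after TGF-β2, and to 3.01 to 5.38 and 2.41 to 2.87 in KO. Most of that was Kdr, while Pecam1 reached 0.133 and Cdh5 0.0946 RPKM at most. Between conditions the endothelial sum was thus lower where Edn1 was higher. Within each group the library highest in Edn1 was also highest in this sum, replicate 2 in WT and replicate 3 in KO. The part of endothelial cells in the results was not tested. In bulk RNA, fewer cells of a type and less RNA per cell cannot be told apart.

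Agtr1a, the receptor of angiotensin II, was lower after TGF-β2 in both genotypes. Agtr1a (ENSMUSG00000049115, chr13:30336441-30382867) was at 2.98, 3.80 and 3.29 RPKM in WT control and at 0.343, 0.972 and 0.599 after TGF-β2. In KO it was at 3.19, 2.99 and 1.31 in control and at 0.414, 0.388 and 0.430 after TGF-β2. The groups did not overlap, and KO control replicate 3 was the only control library under 2.9 RPKM. Agtr1a fell by 2.37 ± 0.33 (log2, SE) in WT, which is 5.16-fold lower, and in KO it fell by 2.52 ± 0.39, which is 5.75-fold lower. Its stimulated means, 0.638 RPKM in WT and 0.411 in KO, were under 1 RPKM. Agtr1a was thus tested through the control groups, in which it is high. It went from the third place in WT control to the eighth after TGF-β2.

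Ace (ENSMUSG00000020681, chr11:105967945-105989964) varied more between cultures than between conditions. It was at 0.829, 0.967 and 3.23 RPKM in WT control and at 0.640, 0.737 and 1.95 after TGF-β2. Its KO values were 1.28, 1.08 and 2.33 in control and 0.697, 0.859 and 1.4 after TGF-β2. Replicate 3 was the highest in all 4 groups. Ace differed by -0.55 ± 0.63 (log2, SE) in WT and -0.57 ± 0.37 in KO, and was not called. Between KO libraries of the same number the stimulated library was the lower each time, with log2 ratios of -0.87, -0.32 and -0.73. The WT ratios were -0.37, -0.39 and -0.73, but WT cultures were not paired by these data. With the replicate block the KO difference was -0.56, under 2-fold, with an adjusted p of 0.0154 by edgeR's quasi-likelihood test against 0.2748 without it.

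Ace is also made by macrophages. The 5 macrophage markers, mostly Lyz2, summed to 40.1, 22.6 and 105.8 RPKM in WT control and 29.7, 18.1 and 72.0 after TGF-β2. They were at 81.0, 29.2 and 18.0 in KO control and at 58.3, 20.7 and 11.6 after TGF-β2. WT replicate 3 was thus the highest for both Ace and these markers, whereas KO replicate 3 was the highest for Ace and the lowest for the markers. Their part in the Ace values was not tested.

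The kinin receptors were called in neither genotype. Their genes are neighbours on chromosome 12, 7847 bases apart. Bdkrb1 (ENSMUSG00000041347, chr12:105603085-105605428) was at 3.20, 2.38 and 3.03 RPKM in WT control and at 2.48, 2.38 and 2.47 after TGF-β2. In KO it was at 4.90, 4.98 and 1.74 in control and at 2.71, 3.09 and 0.744 after TGF-β2. Stimulated KO replicate 3 was the lowest of the 12 libraries, and KO replicate 3 was also the lowest control. The log2 difference was -0.19 ± 0.17 in WT and -0.75 ± 0.60 in KO. Between KO libraries of the same number the log2 ratios were -0.85, -0.69 and -1.22, so the stimulated library was the lower in 3 of 3. With the replicate block the KO difference was -0.78, under 2-fold and not called, with an adjusted p of 0.00559 by edgeR's quasi-likelihood test against 0.3746 without it.

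Bdkrb2 (ENSMUSG00000021070, chr12:105563226-105595237) was at 1.25, 1.99 and 1.58 RPKM in WT control and at 2.14, 1.59 and 2.70 after TGF-β2. Its KO values were 3.07, 2.79 and 2.33 in control and 2.82, 2.65 and 1.86 after TGF-β2. The conditions overlapped in both genotypes. The log2 difference was 0.46 ± 0.25 in WT, with a 95% CI of -0.14 to 1.06, and -0.08 ± 0.20 in KO, with a CI of -0.56 to 0.41.

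**Figure D2:**
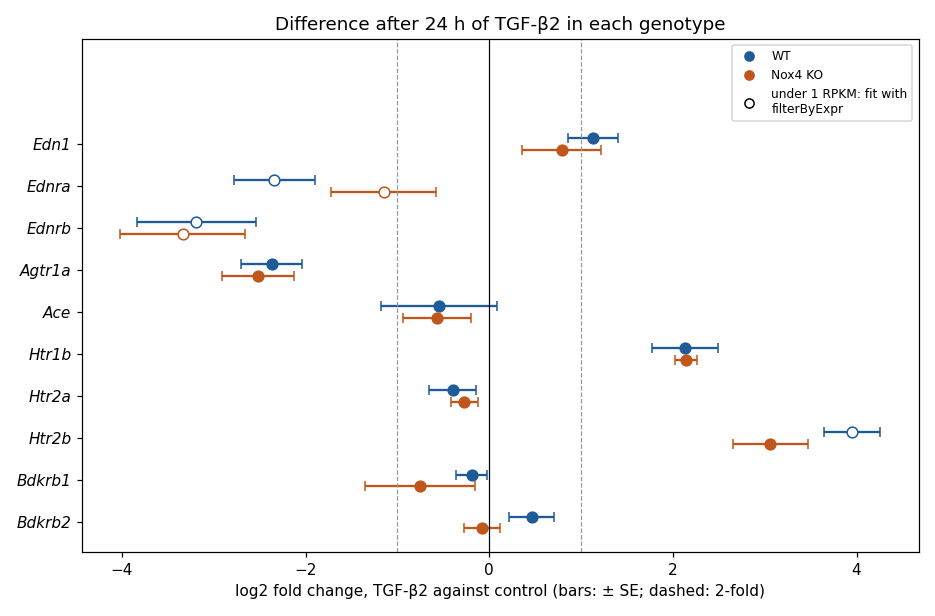
Log2 fold change after TGF-β2 against control (x axis) of the 10 genes in WT (blue) and Nox4 KO (orange), with bars of ± SE and dashed lines at 2-fold. Open points come from the fit filtered by filterByExpr, for genes under 1 RPKM. Htr1b, Htr2b and Edn1 lie to the right and Ednra, Ednrb and Agtr1a to the left, while Ace, Htr2a and Bdkrb1 lie between 0 and -1.

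In counts, 3 of the 7 members tested at 1 RPKM were called in WT, Edn1 and Htr1b higher and Agtr1a lower, and 3 of the 8 tested in KO, Htr1b and Htr2b higher and Agtr1a lower. Over all genes tested, 2.64% were called higher and 5.10% lower in WT, and 2.22% and 4.60% in KO. Under filterByExpr, with all 10 members tested, 6 were called in WT (3 higher, 3 lower), beside 2.98% higher and 6.54% lower of all genes. In KO, 4 were called (2 higher, 2 lower), beside 2.47% and 5.70%. Libraries did not overlap for 3 of 7 members in WT and 4 of 8 in KO, beside 45.2% and 48.5% of all genes tested. Nothing is read from these counts, since the genes were selected on earlier results of these comparisons.

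The order of the levels differed between the conditions. In WT control it ran from Htr2a (12.6 RPKM) and Htr1b (7.29) through Agtr1a (3.35), Bdkrb1 (2.87), Edn1 (2.51), Ace (1.68) and Bdkrb2 (1.60) to Ednra (0.865), Ednrb (0.179) and Htr2b (0.0528). The libraries of Htr2a, Htr1b and Agtr1a did not overlap in this order, whereas each neighbouring pair from Agtr1a to Ednra did, as did Ednrb and Htr2b. After TGF-β2 in WT, Htr1b led (31.1) over Htr2a (9.20) and Edn1 (5.37), and Htr2a and Edn1 overlapped. Bdkrb1, Bdkrb2, Ace, Htr2b and Agtr1a followed, each overlapping the next, and Ednra (0.160) and Ednrb (0.0186) stood apart at the bottom. In stimulated KO the first 3 were Htr1b (38.7), Htr2a (10.6) and Edn1 (5.32), with no overlap between neighbours, and Ednra (0.231) and Ednrb (0.0184) were again the last.

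**Figure D3:**
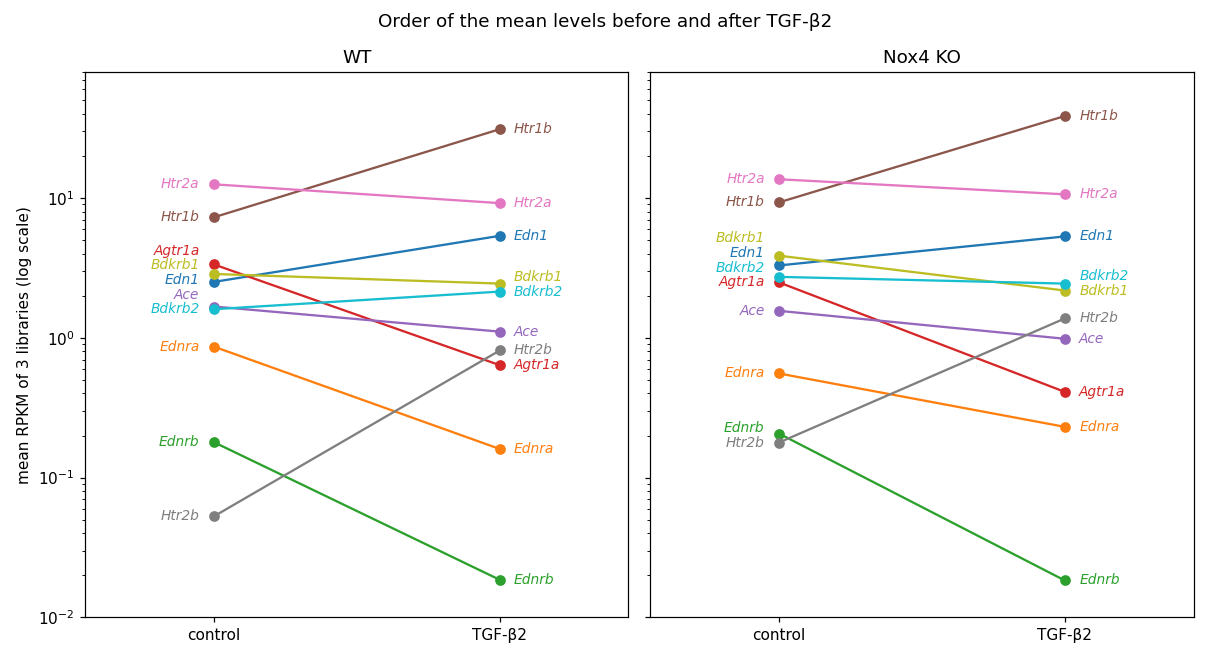
Mean RPKM of 3 libraries on a log scale (y axis) in control and after TGF-β2 (x axis), in WT (left) and Nox4 KO (right), with 1 line per gene; names are moved apart where they would touch. The lines of Htr1b and Htr2a cross, as do those of Htr2b with Agtr1a, Ednra and Ednrb, in both genotypes, and those of Edn1 and Agtr1a cross in WT.

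The comparison of KO with WT asked whether the Nox4 knockout altered these genes. No member was called, in control (0 of 7 tested) or after TGF-β2 (0 of 7 tested), where 0% of all genes were called too. By the same test without adjustment, p was under 0.05 for 1 member in each, beside 596 genes (5.54%) in control and 336 (3.22%) after TGF-β2. DESeq2 called 0 members in each comparison as well.

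The member in control was Bdkrb2, at 1.25 to 1.99 RPKM in WT and 2.33 to 3.07 in KO. It was higher in 3 of 3 KO libraries than in any WT library, by 0.73 ± 0.20 on the log2 scale (1.66-fold, CI 1.19 to 2.32), with an adjusted p of 0.8297 in edgeR's quasi-likelihood test. It was the sole member of 7 without overlap in control, beside 13.6% of all genes tested. After TGF-β2 the difference was 0.21 ± 0.26, with overlap.

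The member after TGF-β2 was Htr2b, at 0.760 to 0.857 RPKM in WT and 1.17 to 1.75 in KO. The difference was 0.78 ± 0.23 on the log2 scale (1.72-fold, CI 1.17 to 2.52), with an adjusted p of 0.8348 in the same test. It was the sole member of 7 without overlap after TGF-β2, beside 10.1% of all genes tested. In control, where it was not tested, its 3 KO libraries (8 to 24 reads) were above the 3 WT libraries (3 to 7 reads) too.

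For the other members the intervals give what these libraries could show. After TGF-β2 the KO minus WT difference was 0.32 for Htr1b (CI -0.13 to 0.78), 0.22 for Htr2a (-0.42 to 0.86) and 0.01 for Edn1 (-0.60 to 0.62), all on the log2 scale. Differences of over 2-fold lay outside these 3 intervals. They lay inside those of Ace (-1.30 to 0.99) and Bdkrb1 (-1.25 to 0.97) after TGF-β2 on the lower side. In control they lay inside those of Ace (-1.49 to 1.22), Agtr1a (-1.26 to 0.34) and Edn1 (-0.72 to 1.4). The control intervals of Bdkrb1 (-0.56 to 1.37) and Htr1b (-0.50 to 1.11) held them on the upper side. Ednra (-1.43 to 0.09 in control and -1.18 to 2.22 after TGF-β2) was wide in the fit filtered by filterByExpr. There Ednrb in control (-1.10 to 1.38) and Agtr1a after TGF-β2 (-1.47 to 0.26) held differences of over 2-fold too.

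**Figure D4:**
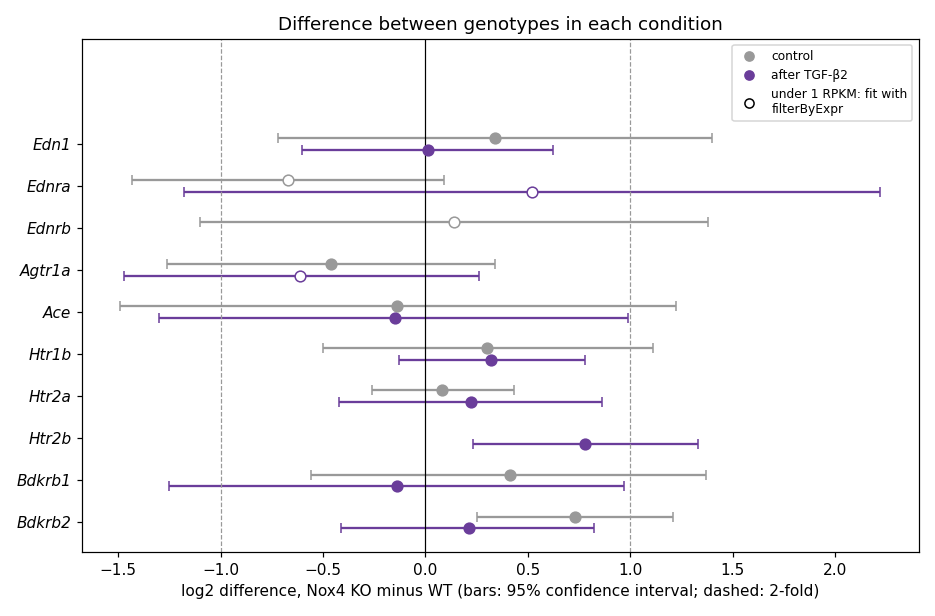
Log2 difference of Nox4 KO minus WT (x axis) in control (grey) and after TGF-β2 (purple), with 95% confidence intervals and dashed lines at 2-fold; open points come from the fit filtered by filterByExpr, and Ednrb after TGF-β2 and Htr2b in control passed neither filter. The intervals of Bdkrb2 in control and Htr2b after TGF-β2 lie above 0, and all others cross it.

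The interaction fit over 12 libraries asked whether the TGF-β2 difference itself depended on genotype. It called none of 8 members and 0% of all genes; without adjustment p was under 0.05 for no member and for 290 genes (2.66%). For Htr1b the interaction was 0.02 (log2, CI -0.89 to 0.93) and for Agtr1a -0.14 (CI -1.30 to 1.03). Edn1, called in WT and not in KO, had an interaction of -0.33 (CI -1.53 to 0.88, adjusted p = 0.9019 by edgeR's quasi-likelihood test). Htr2b had -0.85 (CI -2.32 to 0.61, adjusted p = 0.8503) and Bdkrb2 -0.52 (CI -1.28 to 0.24, adjusted p = 0.8503). Under filterByExpr, Ednra had 1.20 (CI -0.58 to 2.98, adjusted p = 0.9113). A difference between the genotypes in response to TGF-β2 was thus not detectable for any of these genes, and the intervals allow differences of over 2-fold for most of them. The widest was that of Ednrb, at -0.13 under filterByExpr (CI -2.86 to 2.60), and those of Ace (CI -1.80 to 1.78) and Bdkrb1 (CI -2.01 to 0.92) were wide too.

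Around the receptors, 71 further genes of the same systems were listed, of which 34 were tested. The enzymes that break down serotonin were lower after TGF-β2 in both genotypes. Maoa, monoamine oxidase A, went from 22.5 ± 1.57 to 9.96 ± 0.453 RPKM in WT and from 27.6 ± 8.94 to 10.8 ± 1.9 in KO, and fell by 1.14 ± 0.09 on the log2 scale in WT; in KO it fell by 1.27 ± 0.23. Maob, monoamine oxidase B, went from 3.86 ± 1.42 to 1.38 ± 0.288 RPKM in WT and from 3.29 ± 0.458 to 1.19 ± 0.25 in KO, and fell by 1.44 ± 0.31 in WT, while in KO it fell by 1.38 ± 0.20. Maoa lost its KO call without control replicate 3 or without stimulated replicate 2, where Maob was the only pathway gene called. Maob lost its WT call without control replicate 2, where Agt, Maoa and Plcb1 were called.

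Plcb1, a phospholipase C activated by Gq, fell by 1.18 ± 0.19 in WT, from 1.09 ± 0.0259 to 0.470 ± 0.117 RPKM. In both genotypes Plcb1 was tested through the control group, where alone its mean reached 1 RPKM. In KO its difference was -0.60 ± 0.49 and was not called. These were the only pathway genes called at 1 RPKM, 3 of 34 in WT and 2 of 34 in KO, all lower, beside 5.10% and 4.60% of all genes called lower. With no fold limit the adjusted p was under 0.05 for 13 in WT (4 higher, 9 lower) and for 10 in KO (6 higher, 4 lower), beside 10.6% higher and 12.3% lower of all genes tested in WT, and 15.2% and 15.0% in KO. The median log2 difference of the 34 was -0.14 in WT and -0.03 in KO, against 0.00 and -0.01 over all genes tested.

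The pathway genes named from here on were picked after their values were seen. Of 5 further endothelin genes, 1 was tested, the converting enzyme Ece1, at 92.0 ± 5.61 RPKM in WT control and 54.8 ± 8.95 after TGF-β2, with -0.71 ± 0.15 (log2) in WT and -0.59 ± 0.09 in KO, under 2-fold. The other endothelin ligands had few reads, Edn2 at most 14 and Edn3 none. Of 13 angiotensin genes 6 were tested at 1 RPKM and none called. Enpep, under 1 RPKM in every group, was called lower in both genotypes with filterByExpr, but not in KO with no filter. Agt, the angiotensin precursor, went from 7.01 ± 2.93 to 2.91 ± 1.14 RPKM in WT, a difference of -1.22 ± 0.40 that was not called by edgeR on the 6 libraries but was by DESeq2. With the replicate block it was called in both genotypes, where the KO count of pathway genes was 3. Renin (Ren1) had at most 4 reads in a library, and the receptors Agtr1b and Agtr2 at most 6 and 15.

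Of 9 kinin genes 3 were tested and none called, and the kininogen Kng1 had at most 4 reads in a library. Of 19 serotonin genes, Maoa and Maob were the only 2 tested. No other serotonin receptor listed reached 1 RPKM in any library, the highest being Htr7 at 0.372 RPKM, and Htr1a and Htr3a had no reads. Of 25 genes of G protein signalling, 22 were tested at 1 RPKM. Rgs2, with a mean under 1 RPKM in every group, was called lower in both genotypes with filterByExpr. The regulator Rgs16 was at 119.3 ± 8.35 RPKM in WT control and 206.6 ± 23.0 after TGF-β2, a log2 difference of 0.83 ± 0.12 in WT and 0.84 ± 0.32 in KO, under 2-fold. No pathway gene was called between genotypes (34 tested in control, 33 after TGF-β2) or in the interaction.

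**Figure D5:**
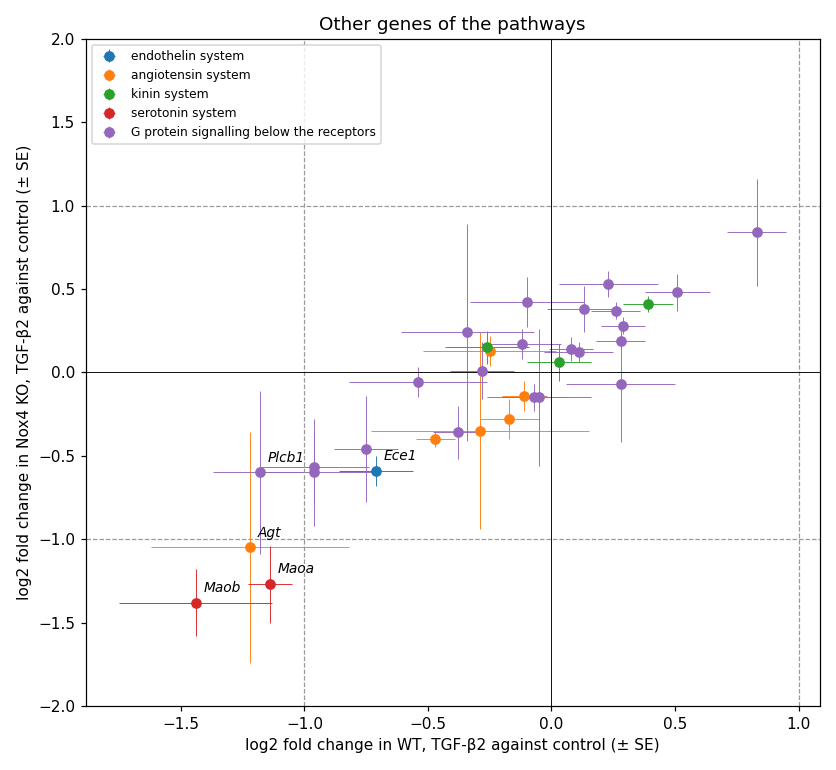
Log2 fold change after TGF-β2 in WT (x axis) and in Nox4 KO (y axis) of the 34 pathway genes tested, coloured by list, with bars of ± SE and dashed lines at 2-fold. Maoa and Maob lie beyond 2-fold on both axes, as does Agt, whose bars are wide, and Plcb1 does so in WT.

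The genes whose level most resembled each member over the 12 libraries were read as a description, by Pearson's r on log2(CPM + 0.5) over 10882 genes. The libraries share their split into control and stimulated, which members that differ between the conditions follow too. For Htr1b these were Msn (r = 0.983), Sdc3 (0.980) and Ap1s2 (0.974), for Htr2b Ss18 (0.990), Adgra1 (0.981) and Copb2 (0.976), and for Agtr1a Fam117a (0.975), Dhrs3 (0.974) and Cacng7 (0.972). For Edn1 they were Klrg2 (0.964), Hist1h2ab (0.958) and Mtap (0.949), and for Ace Zranb1 (0.973), Slc19a2 (0.967) and Metap1d (0.963). For Htr2a they were Zfp974 (0.981), Kansl1 (0.970) and Marf1 (0.957). The kinin receptors had lower values, Bdkrb1 with Irf2bp2 (0.945), Aars (0.924) and Mgarp (0.921), and Bdkrb2 with Zmym1 (0.872), Pms2 (0.847) and H2afz (0.807).

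Several members set the same cultures apart. KO replicate 3 deviated from the mean of its group by 0.87 (log2) for Edn1 in control and 0.47 after TGF-β2, and by -0.89 and -1.05 for Bdkrb1. For Agtr1a it deviated by -0.75 in control and 0.05 after TGF-β2. WT replicate 3 deviated for Ace by 1.17 in control and 0.92 after TGF-β2. Mural and smooth muscle markers (6 genes) summed to 95.3 to 141.3 RPKM in WT control and 147.7 to 158.5 after TGF-β2. In KO they summed to 122.8 to 132.9 and 153.8 to 199.5, and the sums of the conditions overlapped in neither genotype. Mcam (at most 137.5 RPKM) and Cspg4 (at most 53.1) were highest in a stimulated library. Myh11, Rgs5, Notch3 and Des were each highest in a control library. The part of these markers in the serotonin and endothelin values was not tested. Keratinocyte markers (5 genes, at most 0.907 RPKM in sum) and mast cell markers (5 genes, at most 0.0360, with Mcpt4, Tpsb2 and Fcer1a at 0 reads) were near 0.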

How the data were processed

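Total RNA of 12 cultures was sequenced in single reads of 50 nt. Per the submitters' processing notes and the study's methods, the authors demultiplexed with CASAVA 1.8.2, aligned to GRCm38 with STAR 2.4 and counted uniquely mapped reads per gene with featureCounts 1.4.6. The deposited values are raw counts, not normalized; use of strand in counting is not given in the sources used here. Symbols and exon lengths came from GENCODE M21. The labels call the 3 cultures of a group biological replicates, and replicate libraries of a group differed by more than sampling noise.

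Counts were fitted with edgeR 4.0.16 (TMM, quasi-likelihood test, two-sided; limma 3.58.1, R 4.3.3) for each comparison on its 6 libraries, or on all 12 for the interaction, after a filter of mean RPKM of at least 1 in a compared group; Benjamini-Hochberg adjustment ran over all genes tested. The interaction was called on adjusted p under 0.05 alone. The fit of TGF-β2 against control in WT was tested on simulated counts, with independent libraries and the same dispersion for all genes. The other fits were not tested in this way. Intervals of read ratios are exact and cover counting error only. Members, lists, motifs and tests were chosen with earlier results of these data known. Named genes were all members, Nox4, pathway genes called after TGF-β2, and the 3 genes most like each member of at least 1 RPKM; other pathway genes are said to be picked later.

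Replicate numbers are shared between groups by the labels. Deviations from group means correlated between same-numbered control and stimulated KO cultures (0.763, 0.688 and 0.741, each above its correlation with other numbers), so KO cultures are paired by these data, not by the labels; WT cultures and the genotypes were not. Alternatives were DESeq2 1.42.0, its size factors in edgeR, filterByExpr or no filter, no fold limit, a replicate block, a joint fit of all 12 libraries, and each library left out. Promoters are RefSeq's (GRCm38.p6), found for 8 of 10 members; those of Agtr1a and Bdkrb1 and the proteins were not analysed here.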

Additional observations from a re-analysis of the deposited data

How the results depend on the processing

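The members called after TGF-β2 were 3 in each genotype under DESeq2, DESeq2 size factors, all 12 libraries in the fit, the replicate block and no fold limit. In WT the number was 6 with filterByExpr and with no filter, where Ednra, Ednrb and Htr2b were tested as well, and in KO it was 4 in both. The pathway genes called in WT were 5 with filterByExpr, 5 with no filter, 5 with the replicate block and 13 with no fold limit; in KO they were 4 with filterByExpr, 4 with no filter and 10 with no fold limit. Leaving out each library in turn, WT gave 3 to 5 pathway genes (5 without stimulated replicate 3) and KO gave 1 to 3 (1 without control replicate 3 or stimulated replicate 2). The cause of these moves was not tested, beyond the number of genes tested and the fold limit. The counts between genotypes and in the interaction were 0 under every alternative run. No call of a single member changed sign in the 651 comparisons of a member's value with an alternative, of which 7 lost a call and 3 gained one, all named with Edn1, Ednra and Ednrb above. Same-numbered WT cultures correlated at 0.0619, 0.415 and 0.525, so the WT replicate block, with 3 members called, describes shared numbers alone. Few reads limit Htr2b and Ednrb.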
